A study of Mus musculus with 2 samples.

Results

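Laminins are matrix proteins and integrins are cell surface receptors, and this account follows 30 genes that encode their chains among 21474 protein-coding genes measured in the mouse central nervous system at embryonic day 18. The members were picked by their symbols: laminin α, β and γ chain genes (5, 3 and 2 genes) and the numbered integrin α and β subunit genes plus Itgav (12 and 8 genes). Polyadenylated RNA longer than 200 nt came from mixed-sex C57BL/6J littermates with no allele or treatment named, and was sequenced as stranded read pairs. There are 2 libraries of 1 group, biological replicates 1 and 2, with 93979824 and 137012759 fragments assigned to genes. The labels do not say how many embryos each library held, and the design has no second condition, so the data give levels and the difference between 2 libraries without a test. The level used throughout is TPM (transcripts scaled to a common total), which corrects for length and library size, and ± is the SD over n = 2 libraries.

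A laminin molecule joins an α, a β and a γ chain and assembles into the sheet of a basement membrane. In the embryonic brain such sheets lie under the meninges, where the endfeet of radial glia attach, and around every blood vessel. An integrin pairs an α with a β subunit, binds laminin, collagen, fibronectin or other matrix proteins outside the cell, and links them to the actin cytoskeleton through talin and kindlin inside it. Mice and humans that lack particular laminin chains, their receptors or the sugars of the laminin receptor dystroglycan develop breaks in the pial surface and misplaced neurons.

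The labelled tissue was checked with marker genes. All 8 neuronal markers and all 8 radial glial and astrocytic ones were detected, at summed levels of 6425 and 6016 TPM and of 1668 and 1851 TPM in replicates 1 and 2. The 2 libraries stood apart for markers of other tissue. All 10 skeletal muscle markers were at least 2-fold higher in replicate 2, with summed levels of 15.4 and 554 TPM. Of 10 keratinocyte markers the summed level was 120.1 TPM in replicate 1 and 42 TPM in replicate 2. At a mean TPM of 1 or more, 3 of them were at least 2-fold lower in replicate 2. They included Krt14 (21 and 0.42 TPM) and Krt6a (32.9 and 0.03 TPM). Dsc3 went the other way, at 0.46 and 0.92 TPM. Choroid plexus markers summed to 454 and 1441 TPM, of which Ttr alone held 427 and 1389 TPM. Of the 6 at a mean TPM of 1 or more, 3 were at least 2-fold higher in replicate 2. Kl, under that level, was near equal at 0.46 and 0.43 TPM. Cartilage and bone markers summed to 9.76 and 54.7 TPM and sensory ganglion markers to 12.9 and 59.1 TPM. Meningeal fibroblast markers summed to 169 and 356 TPM, but only 2 of 8 were at least 2-fold apart. These were the collagen genes Col1a1 (24.8 and 116 TPM) and Col1a2 (32 and 129 TPM), while Dcn, Foxc1 and Aldh1a2 were lower in replicate 2. Platelet and megakaryocyte markers summed to 358 and 135 TPM, but of the 5 at a mean TPM of 1 or more only Ppbp was at least 2-fold apart (184 and 0.38 TPM). Pf4, Gp1bb, Itga2b and Nrgn were not, and Nrgn alone held 84.5 TPM of the sum in replicate 2. Gp9, Gp5 and Treml1 were at 0.37 TPM or less in both libraries, so the sums do not show a difference across this list. None of the markers in these lists was at 0 in either library. The 9 endothelial markers summed to 269 and 248 TPM with none of them 2-fold apart. Each value is therefore given per library, and in bulk RNA fewer cells of a type and less RNA per cell cannot be told apart.

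Of the 30 members 22 (73.3%) reached a TPM of 1 in both libraries, beside 13506 of 21474 protein-coding genes (62.9%). The median over the 30 members was 3.53 TPM, beside 6.01 TPM over all protein-coding genes. All 5 laminin α genes and both γ genes were detected, 2 of 3 laminin β genes, 10 of 12 integrin α genes and 3 of 8 integrin β genes. The 8 members under the limit in at least 1 library were Lamb3, Itga2, Itga11, Itgb2, Itgb3, Itgb4, Itgb6 and Itgb7. Only 12 members had a mean of 5 TPM or more.

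**Figure D1:**
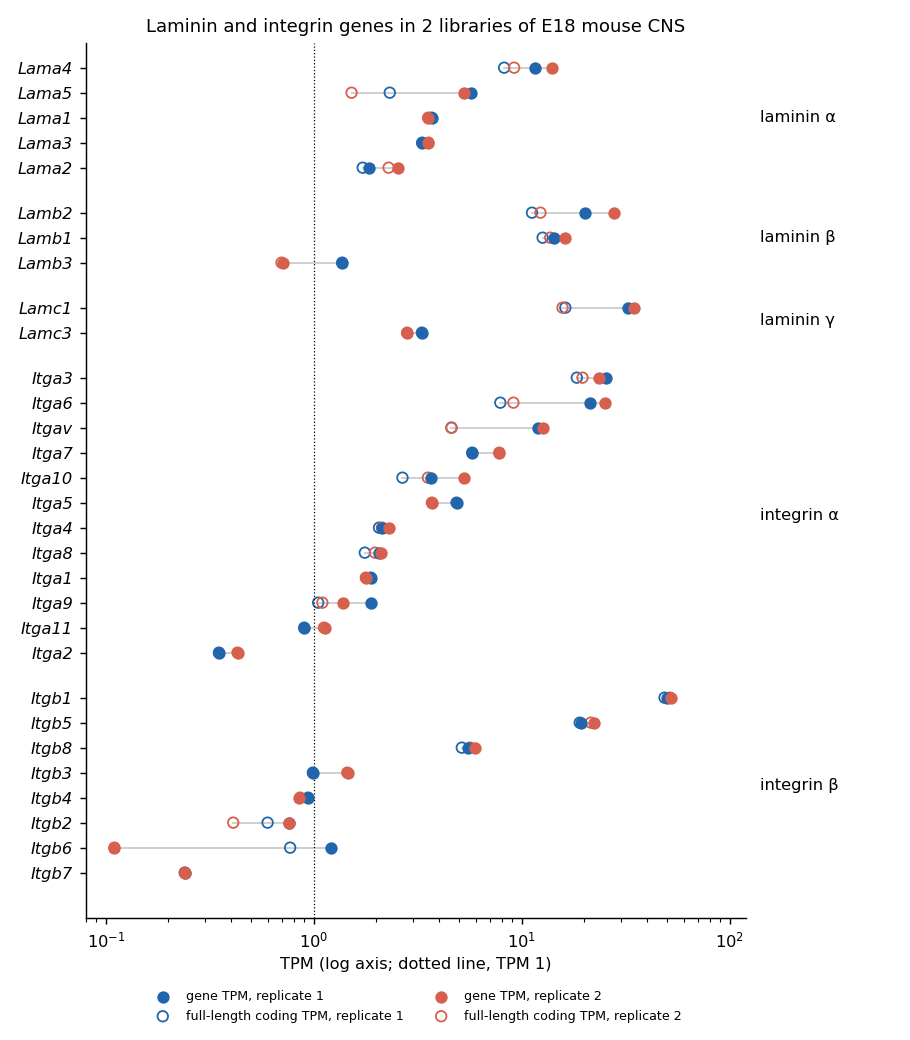
TPM (log axis) of each laminin and integrin gene in replicate 1 (blue) and replicate 2 (red); filled points are the gene value and open points the sum over full-length coding transcripts, the grey line joins the points of a gene, and the dotted line marks TPM 1. Itgb1 was highest at 49.7 and 52.4 TPM, the open points lie well to the left of the filled ones for Lama5, Lamc1, Itga6 and Itgav, and Itgb6 has the widest gap between libraries.

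A gene's TPM sums all its annotated transcripts, including short ones that hold little or no coding sequence, and for several members these carried much of the TPM. TPM divides by length, so a few reads on a short transcript weigh heavily: by expected counts the longest coding transcript held 95.4% and 92.4% of Lama5, 85.6% and 83.6% of Lamc1, and 84.4% and 80.1% of Itgav. For this reason the level of full-length coding transcripts is given beside it, counting protein-coding transcripts with at least 50% of the gene's longest coding sequence. At a mean TPM of 1 or more, 14 of 25 members had at least 90% of their TPM in such transcripts in both libraries, while 4 had under 50%: Lama5, Lamc1, Itga6 and Itgav.

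Among the laminin α chains, Lama4, the α chain best known from vessel walls, was highest at 11.6 and 14.0 TPM in replicates 1 and 2 (mean 12.8 ± 1.65). Its gene lies at chr10:38965515-39110188 of GRCm38. It held 44.4% and 48.4% of the summed laminin α level, and its full-length coding level was 8.23 and 9.19 TPM. A 511 nt transcript with a retained intron took 28.5% and 33.1% of the gene's TPM, but 2.08% and 2.61% of its expected counts.

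Lama5, a chain of vessel and epithelial basement membranes, stood at 5.72 and 5.29 TPM, but its full-length transcript accounted for 40.6% and 28.8% of that. This left 2.32 and 1.52 TPM of full-length coding transcript, below Lama1 in both libraries. Processed transcripts of 451 and 734 nt, which have no coding sequence, made up most of the rest, at 30.5% and 40.5% and at 24.9% and 29.4% of the TPM, but at 1.6% and 2.94% and at 2.78% and 4.51% of the expected counts. Lama1, the α chain of the earliest embryonic basement membranes and of the pial surface, was at 3.69 and 3.55 TPM, all of it from its full-length transcript. Lama2, the muscle and peripheral nerve chain whose loss causes a congenital muscular dystrophy, was lowest by gene values at 1.84 and 2.54 TPM. By full-length coding transcripts it had 1.72 and 2.29 TPM, a range that overlapped that of Lama5.

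Lama3, which encodes the α chain of epithelial laminin, was detected at a near equal level in both libraries (3.32 and 3.55 TPM). Its range touched that of Lama1. The shorter coding transcript, with 5172 nt of coding sequence, took 73.8% and 67.7% of the TPM, and the longer one with 9990 nt took 26.2% and 32.3%. By expected counts the shares of the shorter one were 59.4% and 52.1%. The median was 21.5 reads over the 38 junctions that only the long transcript uses, 70.5 reads over the 36 that both share, and 1.5 reads over the 2 that only the short one uses. Those reads come from the deposited mm9 junction table, whose 2 replicate columns are not tied to a library. The shared junctions hold reads of both transcripts and lie toward the 3′ end, so these medians do not order the 2 forms. Lama1, which has a single full-length form here, had medians of 27.5 and 123 reads in the first and last of 3 equal parts of its junctions.

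Both common β chains were well expressed, and their order depended on which transcripts were counted. Lamb2, a chain of the pial, vessel and synaptic basement membranes, was at 20.1 and 27.8 TPM (mean 23.9 ± 5.41), and Lamb1, the chain of early and general basement membranes, at 14.3 and 16.2 TPM (mean 15.2 ± 1.35). The ranges of the gene values did not overlap. A 578 nt transcript with a retained intron held 35.6% and 40.9% of the Lamb2 TPM, but 4.2% and 5.96% of its expected counts. Full-length coding transcripts came to 11.2 and 12.3 TPM for Lamb2 and to 12.6 and 13.7 TPM for Lamb1, so that the order turned around, again without overlap. Junction reads had Lamb1 ahead too, with a median of 307 reads over its 33 junctions beside 231 over the 32 of Lamb2.

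Lamb3, the β chain of epithelial laminin, was the lowest of the laminin genes at 1.37 and 0.71 TPM. Its junction reads were uneven: the first 16 junctions had a median of 7 reads and the last 6 a median of 63. In the early junctions the columns had medians of 5 and 1 reads, and in the late ones 29.5 and 27.5 reads. The boundary was chosen after the profile was seen. Hsd11b1, on the opposite strand, overlaps the Lamb3 gene and was at 16.7 and 1.12 TPM. The libraries are stranded per the labels, but whether the counting used strand is not given in the sources used here.

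Lamc1, the γ chain of most laminins, was the highest of all laminin genes at 32.6 and 34.6 TPM (mean 33.6 ± 1.39; GRCm38 chr1:153218922-153332786). Its full-length transcript held 49.6% and 45.4% of this, or 16.2 and 15.7 TPM, and a 1447 nt transcript with 310 nt of coding sequence held 49.4% and 52.0%, against 14.3% and 16.1% by expected counts. Lamc3, a γ chain whose loss causes malformation of the human occipital cortex, was at 3.31 and 2.81 TPM, of which 14.2% and 12.1% came from the second of its coding transcripts.

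Summed over full-length coding transcripts, the laminin α genes came to 19.3 and 20.1 TPM and the β genes to 25.2 and 26.7 TPM. By gene values the sums were 26.2 and 28.9 TPM for α and 35.8 and 44.7 TPM for β. The α chains had the lower sum on both scales.

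**Figure D2:**
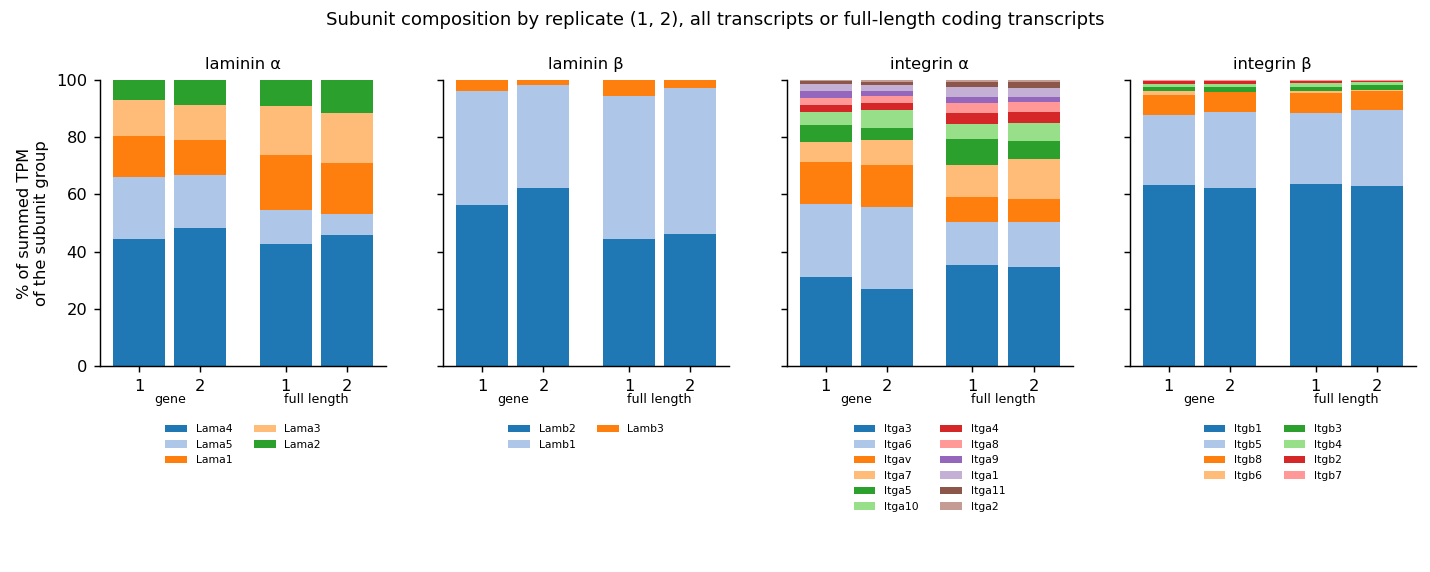
Share of each gene in the summed TPM of the members of its chain type (laminin α and β, integrin α and β). Shares are given in replicates 1 and 2 by gene values (left pair of bars in each panel) and by full-length coding transcripts (right pair). Itgb1 fills most of its panel on both scales, while Lamb2 falls from 56.3% and 62.2% by gene values to below Lamb1 by full-length transcripts.

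Junction reads showed how evenly each gene was covered. Of 23 members with a median of 20 or more reads per junction, 20 had fewer reads in the first of 3 equal parts of their junctions than in the last. Lama1 and Lama3, among the longest of these mRNAs, had ratios of 0.224 and 0.222 of the first to the last part. Length did not order the ratios: Lama5, with the most junctions at 78, had 0.377, beside 0.345 for Itga7 with 26. The late junctions of Lama3 are shared by both its transcripts, so its ratio does not measure evenness alone. Lamc1 was nearer to even at 0.754, and the ratio of Lamb3, under that limit in its reads, was 0.0968. The part of this unevenness in the gene and full-length levels was not tested.

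**Figure D3:**
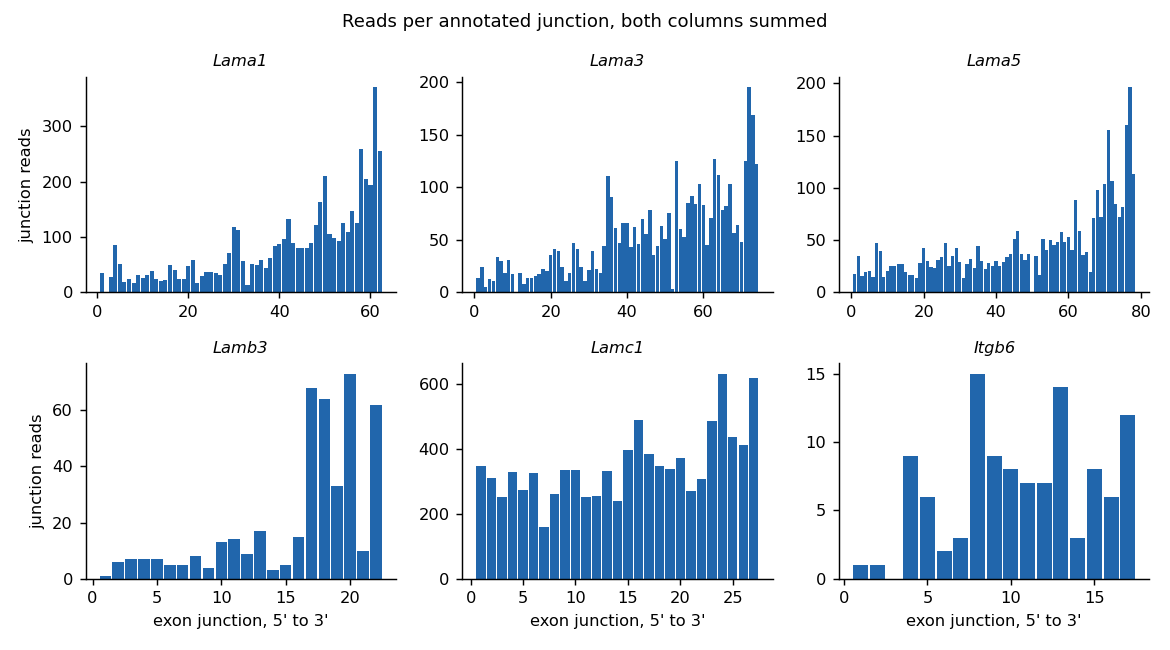
Reads at each annotated exon junction, from 5′ to 3′ and summed over both mm9 columns, for 5 laminin genes and Itgb6. Reads rise toward the 3′ end in Lama1, Lama3 has medians of 21.5 over the junctions of the long transcript alone and 70.5 over those that both share, and Lamb3 has medians of 7 over its first 16 junctions and 63 over its last 6.

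Integrin β1 was the dominant β subunit. Itgb1 (GRCm38 chr8:128685654-128733200), the partner of most laminin, collagen and fibronectin receptors, was at 49.7 and 52.4 TPM (mean 51.1 ± 1.88), 63.2% and 62.3% of the summed β level, and its full-length transcript held 97.8% and 98.5% of the value. Itgb5, which pairs with αv to bind vitronectin, followed at 19.3 and 22.3 TPM (mean 20.8 ± 2.14). Itgb8, the αv partner by which neural cells activate latent TGFβ beside growing vessels, was at 5.52 and 5.93 TPM (mean 5.72 ± 0.29). These 3 genes differed from each other and from all other β genes without overlap.

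The other 5 β genes stayed near or under TPM 1. Itgb3, the β subunit of platelets and of some vessel cells, had 0.99 and 1.46 TPM, and Itgb4, which pairs with α6 in the hemidesmosomes of epithelia, had 0.94 and 0.85 TPM. The leukocyte subunit Itgb2 was at 0.76 TPM in both libraries and the lymphocyte subunit Itgb7 at 0.24 TPM in both, the lowest β gene apart from Itgb6 in replicate 2. Itgb6, an epithelial αv partner, was at 1.21 and 0.11 TPM, on 182 and 43 expected counts. Within the β subunits that can pair with αv, Itgb1 held 64.8% and 63.7%, Itgb5 25.1% and 27.1%, Itgb8 7.19% and 7.21%, Itgb3 1.29% and 1.78%, and Itgb6 1.58% and 0.134%. Which of these pairs form at the protein level was not measured.

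Laminin receptors led the integrin α genes. Itga3, whose product with β1 binds laminin and which radial glia and migrating neurons use in the cortex, was at 25.5 and 23.5 TPM (mean 24.5 ± 1.39), and Itga6, a further laminin-binding subunit, at 21.2 and 25.0 TPM (mean 23.1 ± 2.67). The 2 ranges overlapped by gene values. By full-length coding transcripts they did not, with 18.4 and 19.6 TPM for Itga3 and 7.89 and 9.12 TPM for Itga6. A 2721 nt processed transcript with no coding sequence held 56.5% and 56.2% of the Itga6 TPM and 48.9% and 49.5% of its expected counts. Per junction, Itga3 had a median of 408 reads and Itga6 of 184.

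Itga7, another laminin-binding subunit and best known from muscle, was at 5.78 and 7.80 TPM (mean 6.79 ± 1.43), 1.35-fold higher in replicate 2. Together these 3 laminin receptor genes held 63.8% and 64.7% of the summed α level by gene values and 61.4% and 64.2% by full-length transcripts. The summed α level covers the 12 integrin α members only. It leaves out the 6 integrin α genes outside the symbol rule, which summed to 7.17 and 7.47 TPM by gene values.

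Subunits that recognise the RGD tripeptide of fibronectin and vitronectin came next. Itgav was at 12 and 12.6 TPM (mean 12.3 ± 0.41), but its full-length coding level was 4.59 and 4.6 TPM, since a 463 nt transcript took 52.8% and 56.1% of the TPM, on 4.92% and 5.55% of the expected counts. The fibronectin receptor Itga5 had 4.86 and 3.70 TPM, and Itga8, which binds nephronectin, had 2.06 and 2.10 TPM. With Itgav these held 23.0% and 21.2% of the summed α level.

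Collagen receptor subunits were low. Itga10 was at 3.66 and 5.26 TPM, with 27.0% and 32.7% of it in a 902 nt transcript with a retained intron, which had 5.11% and 6.59% of the expected counts. Itga1 was at 1.88 and 1.78 TPM and contains the gene Pelo on its own strand (24.1 and 23.7 TPM), so the Itga1 value is uncertain where the counting could split shared reads. Itga11 was at 0.90 and 1.13 TPM, and Itga2, the lowest α gene, at 0.35 and 0.43 TPM. Together these 4 genes held 8.25% and 9.88% of the summed α level. Itga4 and Itga9, which bind Vcam1 and tenascin among other ligands, were at 2.14 and 2.30 TPM and at 1.89 and 1.38 TPM. Of the Itga9 value a 603 nt processed transcript held 37.0% and 20.3% by TPM and 3.79% and 1.49% by expected counts, and the antisense gene Gm2415 (28.9 and 24.8 TPM) lies on the opposite strand within it.

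The cytoplasmic tails of several integrins exist in alternative forms, set by whether a cassette exon is kept or skipped. In Itga3, Itga6 and Itga7 the kept exon gives the A form and skipping gives the B form, whose tail comes from the start of the next exon. In Itgb1 the kept exon gives the D form of striated muscle and skipping gives the A form of most other cells. Inclusion is the mean of both inclusion junctions over that mean plus the skipping junction, over both mm9 columns, with exact Clopper-Pearson 95% intervals that cover counting error only.

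Tail choice set Itga7 apart from Itga3 and Itga6. The 142 nt exon of Itga3 (mm9 chr11:94907763-94907904) had 213 and 194 reads on its inclusion junctions and 500 reads that skip it, an inclusion of 28.9% (25.6% to 32.5%). The 130 nt exon of Itga6 (mm9 chr2:71691591-71691720) had 113 and 122 reads against 210, or 35.9% (30.8% to 41.4%). The columns were close to each other in both genes, at 28.6% and 29.1% for Itga3 and at 33.9% and 36.8% for Itga6. The intervals of the 2 genes overlapped.

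Transcript values for mm10 gave A form shares of 36.9% and 34.9% for Itga3 in replicates 1 and 2 (among its long coding transcripts), and of 52.6% and 50.5% for Itga6. For both genes these lie above the junction interval, and most of the Itga6 TPM went to a transcript with no coding sequence.

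In Itga7 the 113 nt exon (mm9 chr10:128393667-128393779) was kept in few reads, 13 and 17 against 306, or 4.67% (2.64% to 7.59%). All of the inclusion reads stood in column 2, where inclusion was 7.18% (4.07% to 11.6%). Column 1 had 0 inclusion reads against 112 skipping reads, which allows a share of up to 2.68% when 3 reads of the total are taken as the limit of a count of 0. The Clopper-Pearson interval of column 1 was 0% to 3.24%, and the intervals of the columns did not overlap. The interval of Itga7 lay below those of Itga3 and Itga6 without overlap. The tails are shown here because they are what the choice of exon changes: each line gives the coding part up to the stop codon, on GRCm38, with the stop codon in capitals, and the exon of Itga7 has no stop codon annotated within it.
Itga3 A form (chr11:95046480-95046590, strand minus): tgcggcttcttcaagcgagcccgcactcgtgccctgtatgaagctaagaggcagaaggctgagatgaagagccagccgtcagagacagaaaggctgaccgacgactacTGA
Itga3 B form (chr11:95045608-95045763, strand minus): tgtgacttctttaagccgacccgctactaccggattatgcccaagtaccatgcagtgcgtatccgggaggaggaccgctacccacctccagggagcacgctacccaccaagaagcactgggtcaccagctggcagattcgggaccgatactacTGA
Itga6 A form (chr2:71853534-71853641, strand plus): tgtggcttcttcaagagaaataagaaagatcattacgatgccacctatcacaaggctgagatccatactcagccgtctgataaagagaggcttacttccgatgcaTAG
Itga6 B form (chr2:71855854-71856015, strand plus): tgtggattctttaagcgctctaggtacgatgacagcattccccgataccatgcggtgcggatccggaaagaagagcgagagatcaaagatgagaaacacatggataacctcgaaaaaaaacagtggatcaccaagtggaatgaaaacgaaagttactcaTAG
Itga7 A form (chr10:128956611-128956723, strand plus): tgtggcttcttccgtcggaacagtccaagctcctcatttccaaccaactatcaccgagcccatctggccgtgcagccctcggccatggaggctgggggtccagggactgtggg
Itga7 B form (chr10:128957621-128957851, strand plus): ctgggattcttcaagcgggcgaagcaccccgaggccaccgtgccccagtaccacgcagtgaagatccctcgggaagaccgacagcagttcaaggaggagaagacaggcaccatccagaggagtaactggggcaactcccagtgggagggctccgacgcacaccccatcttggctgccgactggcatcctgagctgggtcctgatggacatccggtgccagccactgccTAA
Of the first 15 bases, the A and B forms of a gene share 12 in Itga3, 13 in Itga6 and 8 in Itga7. Across genes the A forms of Itga3 and Itga6 share 14 of the first 15 bases and a longest common run of 12 nt, and their B forms share 13 bases and a run of 10 nt. Identity was counted position by position with no gap.

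The D exon of Itgb1, 81 nt long (mm9 chr8:131250883-131250963), had 3 and 6 inclusion reads against 1297 that skip it, an inclusion of 0.346% (0.0838% to 0.785%). The inclusion reads again stood in column 2 only, at 0.558%, while column 1 had 0 against 495 reads, which allows up to 0.606% by the same limit of 3 reads. The column values therefore could not be told apart at this depth. The printed stretches show how the D and A tails differ, with the stop codon in capitals.
Itgb1 D form (chr8:128726983-128727057, strand plus): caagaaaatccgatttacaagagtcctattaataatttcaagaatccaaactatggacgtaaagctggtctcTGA
Itgb1 A form (chr8:128732023-128732088, strand plus): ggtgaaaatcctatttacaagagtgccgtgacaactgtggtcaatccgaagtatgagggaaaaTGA
Of the first 15 bases 11 are identical, and the longest common run is 12 nt. In the mm9 gene values, 10 of 10 skeletal muscle markers were higher in column 2, with a summed RPKM of 1.5 in column 1 and 49.2 in column 2, and their part in the inclusion of the muscle forms of Itga7 and Itgb1 was not tested.

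Itga7 also has a choice between neighbouring extracellular exons near its laminin-binding region, X1 of 132 nt and X2 of 120 nt (mm9 chr10:128378501-128378632 and chr10:128378878-128378997). The X1 exon had 4 and 16 reads on its junctions and the X2 exon 31 and 38, so X2 made up 77.5% (62.2% to 88.5%), with 86.5% in column 1 and 71.2% in column 2. The junctions of X1 were unequal, so the share depends on which of them are counted, and the interval does not cover this. A single read joined both exons. Their sequences are shown because the choice between them changes the protein; no base is capitalised.
Itga7 X1 exon (chr10:128941445-128941576, strand plus): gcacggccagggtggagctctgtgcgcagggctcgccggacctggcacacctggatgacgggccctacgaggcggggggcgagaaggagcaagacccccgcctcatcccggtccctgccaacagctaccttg
Itga7 X2 exon (chr10:128941822-128941941, strand plus): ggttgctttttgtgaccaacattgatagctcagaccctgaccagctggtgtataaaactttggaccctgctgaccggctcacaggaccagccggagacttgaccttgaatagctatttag
The GC content was 70.5% in X1 and 49.2% in X2. Deposited mm10 transcript values assigned 100% of the Itga7 level to 1 long transcript, which carries X2 and the B tail. This share leaves no room for the junction reads on X1 and on the A exon. If no other long form was quantified it was fixed in advance, so it is not a measure of exon choice.

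**Figure D4:**
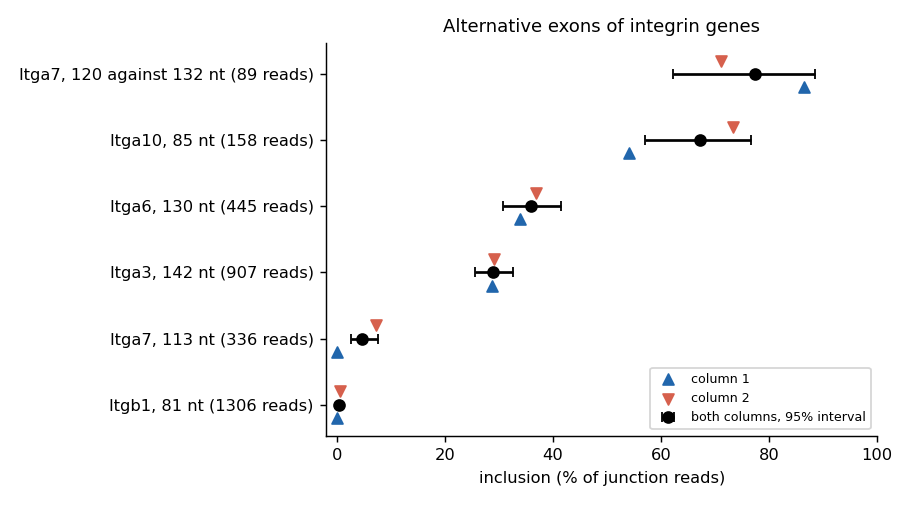
Inclusion (percent of junction reads) of alternative exons with at least 150 junction reads, and of X2 against X1 in Itga7; black points give both mm9 columns with the 95% interval, and triangles each column. Itga3 lies at 28.6% and 29.1% by column and Itga6 at 33.9% and 36.8%. The muscle-type exons of Itga7 and Itgb1 lie lower, at 4.67% and 0.346% over both columns.

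Among other members with at least 20 junction reads on an exon kept at 5% to 95%, Itga10 had the most reads, on an 85 nt exon (mm9 chr3:96461350-96461434) kept at 67.2% (57.0% to 76.6%), with 54.1% in column 1 and 73.4% in column 2. Its column intervals overlapped (34.3% to 71.7% and 60.9% to 83.7%). For the remaining members the exon with the most reads rested on 22 to 67: a 51 nt exon of Lama3 at 88.7%, an 89 nt exon of Itgb2 at 83.3%, an 86 nt exon of Itgb3 at 94.4% and a 159 nt exon of Itgb4 at 6.82%. None of these exons had all its junctions at a deposited irreproducibility score (0 to 1) of at most 0.1. The inclusion junctions were unequal for Lama3, with 62 and 1 reads, and for Itgb4, with 1 and 5. A 109 nt exon of Lama3 with fewer reads met that score limit, at 68.2% (45.1% to 86.1%).

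The 2 libraries were close for nearly all members. Ratios were taken between read counts scaled to library size (CPM, with TMM factors), and 24 of the 25 members with a mean TPM of 1 or more lay within 1.5-fold, or 96%, beside 94.1% of 15281 genes. None of these was at least 2-fold higher in replicate 2, where 2.05% of all genes were and 0.857% were at least 2-fold lower. The median log2 ratio of replicate 2 to replicate 1 was 0.08 over these members and -0.01 over all genes. Of the 25 members, 18 (72%) were higher in replicate 2, beside 47.5% of all genes.

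Of these 25, the member outside 1.5-fold was Lamb3, 1.77-fold higher in replicate 1 by CPM on 329 and 281 expected counts. Itgb6, under the filter at a mean of 0.66 TPM, was 6.25-fold higher in replicate 1 by CPM. Both are known for epithelia. Of the 6 keratinocyte markers at a mean TPM of 1 or more, none was higher in replicate 2 and 3 were at least 2-fold lower there. Krt1 and Krt10 were within 1.5-fold. Among the markers under that filter, Krt5 and Dsg3 were 12.8- and 19.6-fold higher in replicate 1. Trp63 was near equal, and Dsc3 was 1.98-fold higher in replicate 2. The part of keratinocytes in the values of Lamb3 and Itgb6 was not tested. Lama3, whose product joins that of Lamb3, did not go with it, at a ratio of 0.16 on the log2 scale, and Itgb4 was at -0.13.

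On the other side, the largest ratios among measured members were for Itgb3, 1.48-fold higher in replicate 2, and for Lama2, Itga7 and Itga10, 1.36-, 1.35- and 1.35-fold higher. The skeletal muscle list, 10 of 10 at least 2-fold higher in replicate 2, stands beside the values of Lama2 and Itga7, both known from muscle, and its part in them was not tested. Lama5 had a log2 ratio of -0.56 by CPM while its TPM values were 5.72 and 5.29. The deposited effective length that divides the count was 4764 nt in replicate 1 and 3492 nt in replicate 2.

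**Figure D5:**
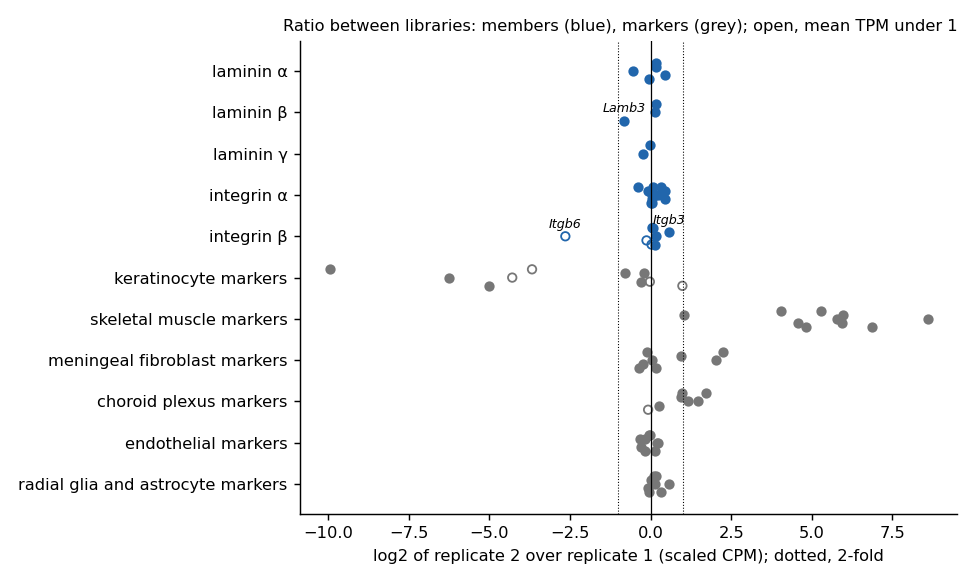
log2 ratio of replicate 2 to replicate 1 (scaled CPM) for each member by chain type (blue) and for marker lists (grey); open points have a mean TPM under 1, and dotted lines mark 2-fold. Lamb3 and Itgb6 lie farthest to the left among the members, and the others lie between -0.56 and 0.56. Skeletal muscle markers lie wholly to the right. Keratinocyte markers spread to the left, except Krt1, Krt10 and Trp63 within 1.5-fold and Dsc3 to the right at 1.98-fold.

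Other genes of the same pathways were measured from lists, which describe the surroundings of the members. All 12 other basement membrane genes were detected, with a median of 23.2 TPM beside 6.01 TPM over all protein-coding genes. Sparc, a collagen-binding glycoprotein, led at 318 and 378 TPM, followed by the proteoglycan gene Agrn at 296 and 267 TPM and the collagen IV genes Col4a1 at 56.4 and 50.5 TPM and Col4a2 at 39.6 and 35.8 TPM. Egfl6 was lowest at 1.19 and 1.94 TPM. Nid1, whose product links laminin to collagen IV, had 18.8 and 24.4 TPM, a level between the gene values of Lamc1 and Lama4. The full-length coding level of Lamc1 was lower, at 16.2 and 15.7 TPM, and such a level was not taken for Nid1.

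For dystroglycan, the main laminin receptor that is not an integrin, 11 of 12 listed genes were found and all 11 were detected, with a median of 24.3 TPM. Dag1, which encodes dystroglycan itself, was at 27.9 and 26.2 TPM, near the gene values of Itga3 and Itga6. Of the enzymes that build its laminin-binding sugar, Pomgnt1 was highest at 63.2 and 62.5 TPM, then B4gat1 at 50.3 and 46.2 TPM, and Ispd was lowest at 3.38 and 3.48 TPM. None was 2-fold apart between libraries.

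Inside the cell, 21 of 22 listed genes for adhesion adaptors and for the control of integrin activation, in either direction, were detected, with a median of 15.8 TPM. Ilk, the scaffold that binds β1 tails, led at 160.2 and 166 TPM, followed by Sharpin at 67.0 and 62.8 TPM and Bcar1 at 53.1 and 47.1 TPM. Talin 1, which activates integrins by binding the β tail, was at 44.3 and 46.1 TPM (Tln1), and talin 2 at 9.72 and 10.2 TPM (Tln2). Among the kindlins, Fermt2 was at 42.1 and 47.9 TPM, the blood cell gene Fermt3 at 2.44 and 2.03 TPM, and the epithelial gene Fermt1 was the lowest of the list at 0 and 0.01 TPM.

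Of 17 genes for other integrin ligands 16 were detected, with a median of 12.5 TPM. Mfge8, a ligand of αv integrins, was at 136 and 139 TPM, Reln at 100.4 and 99.7 TPM, and the αv ligand gene Vtn at 74.8 and 69.5 TPM. Madcam1 was lowest at 0.32 and 0.22 TPM. Spp1, which encodes osteopontin of bone and other tissue, was the one ligand past 2-fold, at 12.5 and 109 TPM and 8.75-fold higher in replicate 2, where bone markers were higher as well; their part was not tested. All 7 tetraspanins and partners of integrins were detected, with a median of 79.5 TPM, led by Bsg at 741 and 719 TPM and Cd81 at 224 and 208 TPM, with Cd47 lowest at 48.8 and 44.0 TPM. Cd151, the tetraspanin that holds laminin-binding integrins, was at 58.2 and 57.0 TPM.

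Only 1 of the 6 integrin α genes outside the symbol rule was detected, Itga2b of platelets and megakaryocytes at 5.09 and 5.92 TPM. Itgam of microglia and macrophages had 1.33 and 0.85 TPM, and the lowest was Itgax at 0.08 and 0.07 TPM. The β partner of Itga2b is Itgb3, given above.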

How the data were processed

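Per the labels, stranded paired libraries of polyadenylated RNA were made from 2 biological replicates. The authors deposited, for each library, TPM, FPKM and expected counts of genes and of transcripts (mm10, GENCODE M4, per the read-me texts). The program that made them is not given in the sources used here. On mm9 the authors deposited gene values called RPKM (Ensembl 65), and junction read counts with an irreproducibility score, a fraction from 0 to 1. No label ties either column of those mm9 files to a library.

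Symbols, gene types and transcript sequences came from GENCODE M21 on GRCm38, the same build as mm10; no coordinate was moved between builds, and mm9 exons were matched by their length and that of the exon before. Of 43346 genes 42462 had a symbol. Entries that are no gene took 3.62% and 4.01% of the expected counts and were left out. Of 143 transcripts of the members 142 matched.

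A gene counted as detected when each library had a TPM of at least 1. For ratios the expected counts were rounded and scaled with TMM in edgeR 4.0.16 (prior count 1), with DESeq2 1.42.0 size factors as an alternative; ratios use genes at a mean TPM of 1 or more. There was 1 library a side, so no p-value was computed. The ratio code was tested on simulated data. At these depths 3 counts correspond to 0.0325 and 0.0215 CPM, counting error only. Work ran under R 4.3.3 and Python 3.11.15 with SciPy 1.17.1 and pandas 2.3.3.

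Of the 31 genes that meet the symbol rule 1 is not reported here, and every count, ratio summary and median over members leaves it out. Named were all members, the highest 2 to 4 and the lowest of each pathway list, listed genes at least 2-fold apart, members whose second transcript holds 10% or more in both libraries, and per member the exon with most reads at 5% to 95% inclusion plus the tail exons. A few further genes (Nid1, Dag1, Tln1, Tln2, Fermt2, Fermt3, Cd151, Itgam) are named for their role and were chosen after their values were seen. The members and lists were chosen with earlier results of these data known, and full-length levels were added after seeing the data. No per-sample column of another series was used.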

Additional observations from a re-analysis of the deposited data

How the results depend on the processing

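Of the alternatives, 4 were chosen after seeing the data: counting full-length coding transcripts (at 50% or 80% of the longest coding sequence). No paired analysis was possible because both libraries belong to 1 group and no test was made. The count of detected members was 22. It was 9 with an RPKM of 1 in both mm9 columns, and 24 with either library alone. The RPKM values of the members were lower than their TPM, so an RPKM of 1 is the stricter limit. Itgb1, for one, had 49.7 and 52.4 TPM by library and 5.9 and 6.53 RPKM by column. The count at least 2-fold apart was 0 of the 25 reported members past the filter; it was 1 by the mm9 columns (Itga8), 1 with no filter on low values (Itgb6) and 1 at 1.5-fold (Lamb3). The median member level of 3.53 TPM became 4.57 when rescaled over nuclear protein-coding genes and 3.08 for full-length transcripts, and was 3.49 and 3.55 in single libraries.

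Shares of the leading genes moved as follows. Lama4 (46.4%) had 34.4% by CPM, 53.5% by mm9 RPKM, 50.4% at the 80% limit and 44.4% to 48.4% in single libraries. Lama3 (12.5%), which did not lead, had 17.5% by full-length transcripts at the 50% limit and 5.83% at the 80% limit. Its shorter coding transcript passes only the 50% limit. Lamb2 (59.2%) had 46.0% by CPM, 42.9% by mm9 RPKM and 45.4% by full-length transcripts at either limit, all below Lamb1, and 56.3% to 62.2% in single libraries. Itga3 (29.0%) had 25.9% by mm9 RPKM, where Itga6 led, 34.8% and 35.7% by full-length transcripts at the 50% and 80% limits, and 27.0% to 31.0% in single libraries. Itgb1 (62.8%) had 60.4% by CPM, 65.3% by mm9 RPKM and 62.3% to 63.2% in single libraries.

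Members whose second transcript holds 10% or more numbered 12; 5 did by expected counts, 7 among coding transcripts, and 12 to 13 in single libraries. Inclusion in column 1 alone was 0 for the tail exons of Itga7 and Itgb1; with a score of at most 0.1 the Itgb1 exon had no value. At a TPM of 0.5, 2 integrin α genes outside the rule were detected, not 1. Where not stated otherwise the cause of these shifts was not tested.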
